A study of Mus with 6 samples.

Results

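Angptl6, Angptl2 and Angptl4 encode angiopoietin-like proteins, and their expression was followed in 4T1 cells, a mouse mammary carcinoma line, with and without isopimaric acid. The 3 genes were taken by Ensembl ID (ENSMUSG00000038742, ENSMUSG00000004105 and ENSMUSG00000002289, in that order), and all 3 were found among the 35304 IDs of the count table. They were chosen with their values in this comparison known, Angptl6 having stood among the largest increases, so the difference between treated and untreated cells is given as a description with no test. RNA sequencing had been done on 3 untreated samples and on 3 samples exposed for 24 h to 10 µg/mL isopimaric acid (IPA), a diterpene resin acid of conifers that the series title calls an ion channel regulator. Both groups were the same line, grown in RPMI medium with fetal bovine serum, and the labels name no genetic change and no vehicle given to the untreated cells. Whether the replicates came from separate cultures is not given in the sources used here, so their spread may be technical.

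Angiopoietin-like proteins are secreted glycoproteins that resemble the angiopoietins, most of them with a coiled-coil part followed by a fibrinogen-like domain, but they do not act through the angiopoietin receptor Tek as angiopoietins do. Angptl4 is best known as an inhibitor of lipoprotein lipase, and its gene is a textbook target of the fatty-acid-sensing PPAR receptors, of glucocorticoids and of low oxygen. Angptl2 is known as a pro-inflammatory factor that is secreted by many tumor cells, and Angptl6, also called angiopoietin-related growth factor, is known for its expression in liver and for effects on vessel growth and on energy expenditure.

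On the GRCm38.p6 assembly, RefSeq places Angptl6 on chromosome 9 from 20873808 to 20879822, a span of 6015 bp with 1 curated transcript. The first 500 bp of that interval, 8.31% of the span, are shared with the neighbouring gene Shfl (chromosome 9, 20868635 to 20874307). Angptl2 lies on chromosome 2 from 33215951 to 33247725, entirely inside the span of Ralgps1 (33133419 to 33371499). Angptl4 lies on chromosome 17 from 33774900 to 33781575 and shares its span with 0 other genes of the table. Whether the counts used strand is not given in the sources used here, so reads of Shfl or Ralgps1 that fall in the shared stretches cannot be told apart from those of Angptl6 and Angptl2. The exons and strands of these genes, and their sequences, were not analysed here.

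The libraries differed in depth and in how closely they agreed. Their total counts ran from 3410411 in IPA replicate 1 to 58924711 in untreated replicate 2, a ratio of 17.3. Untreated replicate 2 stood apart: its correlation with the other libraries in log2 CPM (counts per 1000000 counts of the library) was 0.779 to 0.811, against 0.922 to 0.987 among the other 5, all across genes, which are not independent replicates. Each comparison is therefore given with and without that library. Markers of the 4T1 line and of other cell types, which would bear on what this library holds, were not analysed here.

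Angptl6 was several times higher in every IPA library than in any untreated one. The untreated libraries had 162, 438 and 305 reads of Angptl6 in replicates 1, 2 and 3, which correspond to 8.0, 7.43 and 5.77 CPM. The IPA libraries had 162, 1998 and 2152 reads, or 47.5, 45.8 and 52.5 CPM. The 2 groups did not overlap: the lowest IPA library, replicate 2, stood 5.73 times above the highest untreated library, replicate 1, and over the 9 pairs of an IPA and an untreated library the ratio reached 9.09. Groups that did not overlap, with IPA higher, were found for 15.7% of the 24935 IDs that passed the filter on low counts, and with IPA lower for 6.38%. Without untreated replicate 2 these shares were 19.8% and 13.9% of 25592 IDs, and Angptl6 was again the member whose groups did not overlap. Since Angptl6 was chosen on these values, nothing is read from its place among them. In bulk RNA, more cells that express a gene and more of its RNA per cell cannot be told apart.

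**Figure D1:**
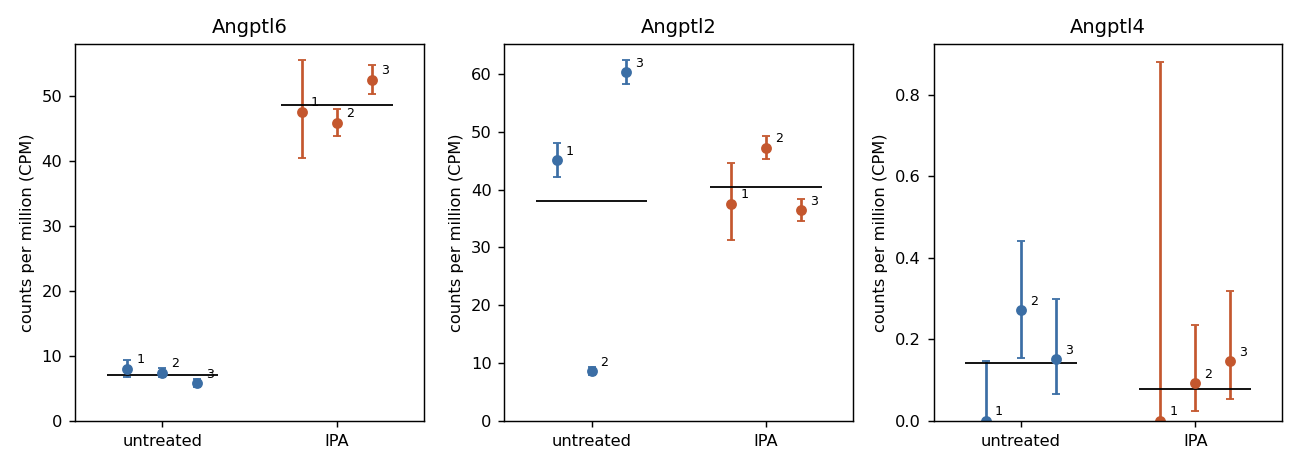
Level of Angptl6, Angptl2 and Angptl4 in each library, in CPM on a linear axis that starts at 0 and has its own range for each gene. Points are libraries with their replicate numbers, vertical bars are exact 95% binomial intervals of the counts (for a count of 0, the level of 3 reads), and horizontal lines are group means (n = 3). The Angptl6 libraries form 2 separate groups, and for Angptl2 untreated replicate 2 lies far below the other 5 libraries. The Angptl4 points are at or below 0.272 CPM, while the bar of IPA replicate 1, with 0 reads, reaches 0.88 CPM.

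Averaged by group, Angptl6 stood at 7.07 ± 1.16 CPM without treatment (SD, n = 3) and at 48.6 ± 3.44 CPM after IPA (SD, n = 3), a ratio of means of 6.88. Without untreated replicate 2 the untreated mean was 6.883 ± 1.575 CPM (SD, n = 2) and the ratio of means 7.06. Within each group the replicates spanned less than either ratio, the highest standing 1.39 times above the lowest in untreated cells and 1.14 times with IPA. The shallowest library, IPA replicate 1, held only 162 Angptl6 reads, and its exact 95% binomial interval ran from 40.5 to 55.4 CPM. That interval takes in the values of IPA replicates 2 and 3, whose own intervals were 43.8 to 47.9 and 50.3 to 54.7 CPM. Among untreated libraries the widest interval was that of replicate 1, from 6.81 to 9.33 CPM. These intervals cover counting error within a library only. They take every read as independent, and no molecular identifiers are stated for the reads.

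Fitted with edgeR over all IDs, the log2 fold change of Angptl6 with IPA was 2.53 ± 0.28 (SE) on all 6 libraries, a fold of 5.76. Without untreated replicate 2 it was 2.73 ± 0.20, a fold of 6.66. At the call threshold used for all genes, a Benjamini-Hochberg adjusted p under 0.05, edgeR called 0 of the 2 tested genes of this group on all 6 libraries, where 0% of IDs were called higher and 0% lower, while 1560 IDs had an unadjusted p under 0.05. On the same libraries limma-voom called 0 IDs in either direction. DESeq2 called 22 IDs higher, 0.119% of those given an adjusted p, and 63 lower, and Angptl6 was among the higher ones. Limma-voom with sample quality weights also called Angptl6 higher, where 1.97% of IDs were called higher. Without untreated replicate 2, edgeR called Angptl6 higher, where 1.26% of IDs were called higher, and did not call Angptl2, where 2.2% of IDs were called lower. Nothing is read from these calls, since Angptl6 was chosen on this contrast.

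Among the 13113 tested IDs whose mean was 5 CPM or more, the fold change of Angptl6 was the 7th highest on all 6 libraries and the 12th highest without untreated replicate 2. This rank restates the values by which the gene was chosen. The plot of fold change against level shows where Angptl6 lies with respect to genes of like abundance.

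**Figure D2:**
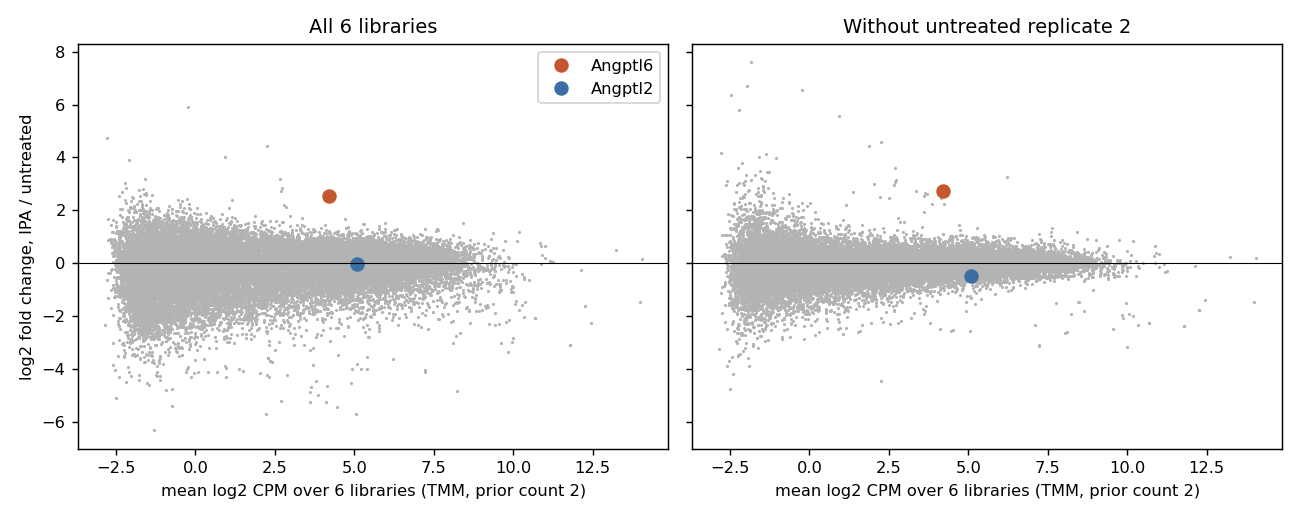
Log2 fold change (IPA over untreated, edgeR) against the mean log2 CPM over 6 libraries (TMM-scaled), for IDs that passed the filter on low counts (grey points). All 6 libraries are on the left, and untreated replicate 2 is left out on the right. Angptl6 (orange) lies above the body of points in both panels, at 2.53 and 2.73, and Angptl2 (blue) lies within it, at -0.03 and -0.48. Angptl4 did not pass the filter and is not drawn.

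Angptl2 showed no shift of this size, and its fold change had no fixed sign. Its levels were 45.1, 8.62 and 60.3 CPM in untreated replicates 1, 2 and 3, from 913, 508 and 3189 reads. With IPA they were 37.5, 47.2 and 36.4 CPM in replicates 1, 2 and 3, from 128, 2059 and 1494 reads. The IPA libraries thus fell inside the range of the untreated ones, and untreated replicate 2 alone lay far below all the others. The untreated mean was 38.0 ± 26.6 CPM and the IPA mean 40.4 ± 5.95 CPM (SD, n = 3 each).

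On all 6 libraries the log2 fold change of Angptl2 was -0.03 ± 0.54 (SE, edgeR), so that the error exceeds the difference. Without untreated replicate 2 the untreated mean was 52.7 ± 10.8 CPM (SD, n = 2) and the log2 fold change was -0.48 ± 0.16, a fold of 0.717. In that comparison the groups still overlapped, since IPA replicate 2, at 47.2 CPM, lay above untreated replicate 1, at 45.1 CPM. Without untreated replicate 3 in place of replicate 2, the log2 fold change was 0.43 ± 0.57. The sign of the Angptl2 value therefore turned on which untreated library was left out. Angptl6 was at 2.36 ± 0.29 without untreated replicate 3, a sign fixed by its choice.

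Angptl4, the lipoprotein lipase inhibitor, was at the edge of detection in 4T1 cells with or without IPA. It had 0, 16 and 8 reads in untreated replicates 1, 2 and 3, and 0, 4 and 6 reads in IPA replicates 1, 2 and 3. Its highest level, in untreated replicate 2, was 0.272 CPM, with an exact 95% binomial interval of 0.155 to 0.441 CPM. The 2 libraries with no read were the 2 shallowest, where a count of 0 allows a level of up to 0.148 CPM in untreated replicate 1 and 0.88 CPM in IPA replicate 1 (3 reads). The gene did not pass the filter on low counts and was not among the IDs tested. Summed over libraries there were 24 reads in untreated cells and 10 with IPA, or 0.182 and 0.114 CPM, and the ratio of 0.625 had an exact 95% counting interval from 0.267 to 1.36. Without untreated replicate 2, which gave 16 of the 24 untreated reads, the ratio was 1.04, with an interval from 0.369 to 3.03. Both intervals pool the reads of each group and cover counting error only, not variation between libraries. A difference in Angptl4 was not detectable at this depth, and the second interval leaves room for changes of over 2-fold in either direction.

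Angptl6 and Angptl2 also differed in how they behaved in the library that stood apart. On the scale of log2(CPM + 0.5), Angptl6 in untreated replicate 2 differed from the mean of untreated replicates 1 and 3 by 0.12, whereas Angptl2 differed by -2.53. The median over the same 13113 IDs was -0.54, with the middle of the distribution, from the 25th to the 75th percentile, between -1.29 and 0.26. Of these IDs, 71.5% had a difference below that of Angptl6 and 6.12% one below that of Angptl2. Relative to other IDs, Angptl6 was thus on the higher side in this library, which is 1 of the 6 on which it was chosen, and Angptl2 was among those most reduced in it. Why this library differs was not tested.

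**Figure D3:**
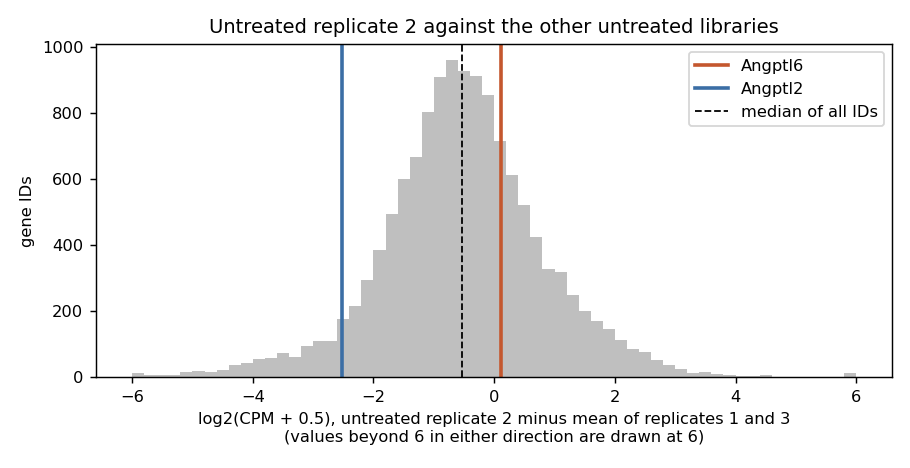
Distribution over 13113 IDs of the difference between untreated replicate 2 and the mean of untreated replicates 1 and 3, in log2(CPM + 0.5), with the number of IDs on the vertical axis. Angptl6 (orange line, 0.12) lies to the right of the median of all IDs (dashed, -0.54), and Angptl2 (blue line, -2.53) lies in the left tail.

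The SD of log2(CPM + 0.5) over the 3 untreated libraries was 0.23 for Angptl6 and 1.47 for Angptl2, against a median of 0.545 over the 13113 IDs. Over the 3 IPA libraries it was 0.0998 for Angptl6 and 0.203 for Angptl2, against a median of 0.142. The wide untreated spread of Angptl2 rested on replicate 2: over untreated replicates 1 and 3 alone the SD was 0.294 for Angptl2 and 0.31 for Angptl6, against a median of 0.156. Scaling by trimmed mean of M-values (TMM) moved untreated replicate 2 the most, since its factor was 0.754 against 1.02 to 1.11 for the other libraries. On TMM-scaled library sizes Angptl6 stood at 7.86, 9.85 and 5.64 CPM in untreated replicates 1, 2 and 3 and at 42.7, 42.4 and 49.6 CPM in the IPA replicates, so the groups remained apart and untreated replicate 2 became the highest untreated library.

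A ratio of reads of 2 genes within a library does not depend on its scaling. The number of Angptl6 reads per Angptl2 read was 0.177, 0.862 and 0.0956 in untreated replicates 1, 2 and 3. With IPA it was 1.27, 0.97 and 1.44. The ratio was higher in all 3 IPA libraries than in any untreated library, although untreated replicate 2 came close to IPA replicate 2. In untreated replicate 2 Angptl2 was at 8.62 CPM, against 45.1 and 60.3 CPM in replicates 1 and 3. Angptl6 was at 7.43 CPM there. Since Angptl6 was chosen with its increase in these libraries known, nothing is read from this order. Ratios of other pairs of genes were not analysed here. The ratio was not corrected for transcript length, so it compares libraries and does not say which gene was the more abundant.

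The IDs whose pattern was most like that of Angptl6 were sought among 3818 other IDs. Their mean was 5 CPM or more and their groups did not overlap, with IPA either higher or lower. The measure was Pearson's r of log2 CPM over the 6 libraries, here on TMM-scaled library sizes, and 48 IDs reached at least 0.95. The TMM factor of untreated replicate 2, 0.754, thus enters r, and r on library totals was not computed. A high r was in part built in for candidates with IPA higher, since their groups, like those of Angptl6, did not overlap. The values are a description only. The highest were ENSMUSG00000057215, with r = 0.994, and ENSMUSG00000023045, also with r = 0.994, and the files do not pair either with a gene name. The second of them reached a mean of 5 CPM only through the IPA libraries. Likeness in this measure is of shape and not of size. On library totals ENSMUSG00000057215 averaged 42.1 ± 6.56 CPM untreated and 63.7 ± 1.88 CPM treated (SD, n = 3 each). ENSMUSG00000023045 averaged 0.926 ± 0.187 and 23.5 ± 2.71 CPM (SD, n = 3 each). Their log2 fold changes on all 6 libraries, fitted with TMM factors, were 0.37 and 4.43, on either side of the 2.53 of Angptl6. Without untreated replicate 2 their r with Angptl6 was 0.997 and 0.999, and 271 IDs reached 0.95. With any of the other 5 libraries left out, which also leaves 5 points, the number ranged from 53 to 158.

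**Figure D4:**
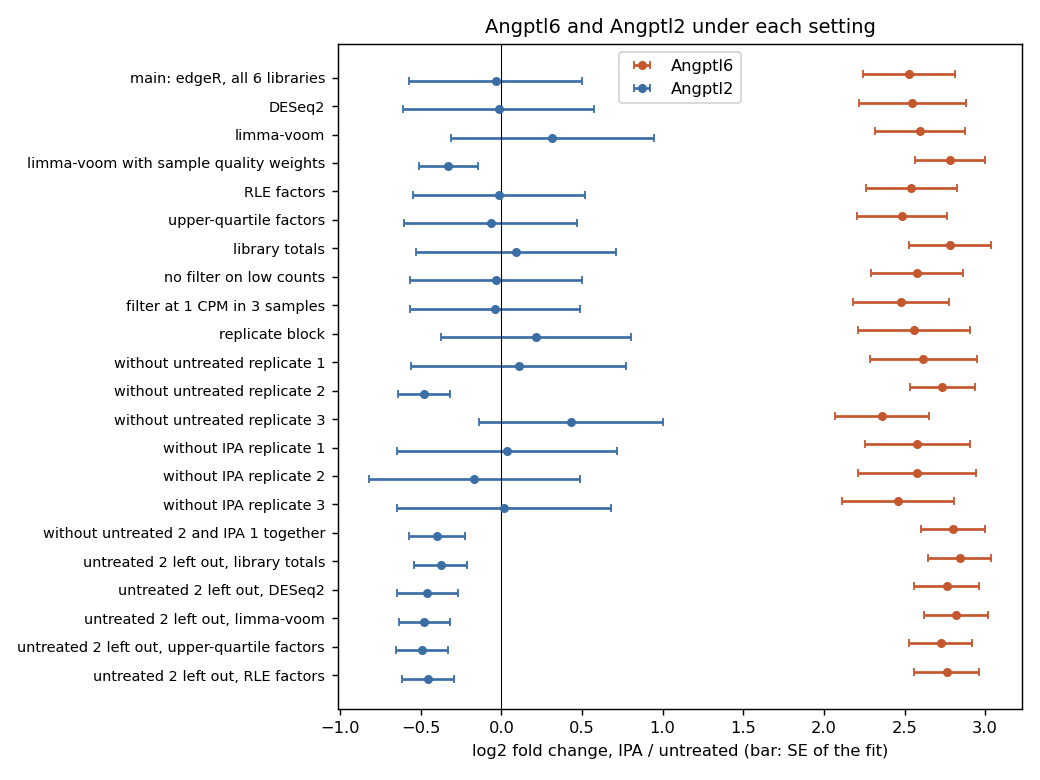
Log2 fold change (IPA over untreated) of Angptl6 (orange) and Angptl2 (blue) under each of 22 settings, with bars for the SE of the fit. Every Angptl6 point lies between 2.36 and 2.84, while the Angptl2 points lie on both sides of 0, between -0.49 and 0.43.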

How the data were processed

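RNA-seq of 6 samples of 4T1 cells was analysed from raw read counts per Ensembl gene ID, as deposited by the authors. The submitters' processing notes name GRCm38 and mm10; the aligner, counter, annotation and use of strand were not given in the sources used here. Groups and replicate numbers came from the sample titles. The 3 genes and all lists were chosen with earlier results of these data known. Gene names came with that choice: the RefSeq table at hand (49997 genes, GRCm38.p6) has 0 rows with an Ensembl ID. Lists of other family members, receptors, lipase and PPAR genes and cell type markers were therefore not analysed here.

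CPM used library totals. Fold changes came from the quasi-likelihood fit of edgeR 4.0.16 (robust, TMM, filterByExpr) in R 4.3.3. Each edgeR SE is the size of the log2 fold change over the square root of F. For DESeq2 and limma-voom the SE is that of their own fits. The procedure was tested on simulated data. DESeq2 1.42.0, limma 3.58.1 (voom), other factors and filters, the replicate block and left-out samples were alternatives. Named genes were the 3 chosen and the 2 IDs with the highest r with Angptl6 (prior count 2). 3 reads correspond to 0.0509 CPM in the deepest and 0.88 CPM in the shallowest library.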

Additional observations from a re-analysis of the deposited data

How the results depend on the processing

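Over 21 alternatives the log2 fold change of Angptl6 ran from 2.36 to 2.84, above 0 in all 21, a sign fixed by its choice. Of the 21, 9 called Angptl6, and nothing is read from these calls since it was chosen on this contrast. With untreated replicate 2 kept, only DESeq2 and limma-voom with sample quality weights called it, where 0.119% and 1.97% of IDs were called higher. The other calls came from fits without that library, where edgeR called 1.26% of IDs higher and other fits 309 to 719 IDs. Angptl6 was at 2.78 with library totals and with sample quality weights. With 1 sample left out it ran from 2.36 to 2.73. With untreated replicate 2 left out it was 2.82 with limma-voom, 2.76 with DESeq2, 2.84 with library totals, 2.72 with upper-quartile factors and 2.76 with RLE factors, and 2.80 without IPA replicate 1 as well. Angptl2 was above 0 in 7 and below 0 in 14 alternatives, from -0.49, with upper-quartile factors and without untreated replicate 2, to 0.43, without untreated replicate 3. All values above 0 came from fits that kept untreated replicate 2. Without that library the values ran from -0.49 to -0.38. Library totals moved the median of all IDs from -0.08 to 0.13.

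Over all IDs and libraries, higher and lower calls numbered 0 and 0 in the main comparison, 22 and 63 with DESeq2, 492 and 755 with sample quality weights, and 1 and 0 with library totals and with no filter. With 1 sample left out they ran from 0 to 322 and from 0 to 564, the upper ends being those without untreated replicate 2 and all the other counts 0. Without that library, library totals gave 691 and 327, DESeq2 634 and 660, limma-voom 660 and 1009, upper-quartile factors 309 and 581, and RLE factors 364 and 481. Without IPA replicate 1 as well there were 719 and 763. The cause was not tested. Upper-quartile and RLE factors without untreated replicate 2, and leaving out samples other than that one for the likeness to Angptl6, were added after seeing the data.

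With the replicate block Angptl6 was at 2.56 and Angptl2 at 0.21, with 0 calls in either direction. Between samples of equal number, deviations from the group means had correlations of -0.0771, 0.0183 and 0.161, and 3 of 6 samples correlated best with their own number, so the numbers were not taken to pair the samples. Angptl4 had a log2 fold change of -0.80 ± 1.5 (SE) with no filter -0.87 ± 1.92 with DESeq2 and 0.25 ± 2.38 with DESeq2 without untreated replicate 2, and no value in fits that apply a filter. Depth limits it most in IPA replicate 1.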
